A study of Rattus norvegicus with 14 samples.

Results

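The 35 probes described here gave a signal in soleus, a slow postural muscle of the hind leg, of untreated rats and of rats after short exercise. In soleus after either short heat treatment their cells were empty. They were chosen by their measured values. A probe belongs when its intensity was 1200 or more in the soleus control and in soleus short exercise (3dex), and its cell was empty in soleus short heat (2dac) and in soleus short heat plus exercise (3dexac). The array carries 1185 probes, and 606 of them passed the first condition, so that 35 of 606 (5.78%) also met the second. Those 4 soleus samples chose the probes, so their values are given as a description without a test.

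The study measured gene expression in left ventricle of the heart and in soleus under 7 conditions, with 1 sample per tissue and condition, 14 samples in all. Control rats had no treatment. Short heat was 34°C for 2 days, short exercise was training at 24°C for 3 days, named as treadmill training for soleus, and the short combination was treadmill training at 24°C with heat at 34°C for 3 days. The long treatments were heat at 34°C (Acc), treadmill training at 24°C (Ex) and their combination (ExAc), each for 1 month. Per the labels, RNA was pooled, with 3 pools and 6 animals mentioned for a group, and strain, sex and age of the rats are not stated in these sources. Each file holds 1 value per probe, so no sample has a replicate error, and short heat differs from the other short treatments also in its length.

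Heat acclimation is the slow adjustment of body and tissue to lasting moderate heat, and its first days are known for changes in gene expression that differ from those of the acclimated state. Endurance training acts on the soleus, an oxidative muscle of mostly slow fibres, through repeated contraction. The probes carry identifiers with the prefix R (23 of the 35) or RG (12 of the 35, 34.3%, against 40.8% of all 1185). The sources used here pair none of them with a gene, and 0 of the 1185 were found in the reference gene table, so no gene, pathway or tissue marker can be named, and the labelled tissues could not be checked against markers.

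An empty cell is read here as a bound and not as a zero. In the 12 treated samples the lowest intensity was 1200, in arbitrary units on a linear scale, and the remaining cells were empty. Only the controls hold values under 1200. The word measured is used below for an intensity of 1200 or more. No label says why a cell is empty, so that an intensity under the limit is an assumption. Of the 397 probes at 2400 or more in both starting soleus samples, 74 were empty after short heat, and cells emptied for another reason were not tested for.

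The 35 probes were weak before heat. In the soleus control their intensities ran from 1278 to 6704 with a median of 1793, against a median of 3783 for the other 571 probes of the 606. In soleus short exercise they ran from 1242 to 3895 with a median of 1781, against 4496 for the other 571. Only 1 of the 35 reached the control median of the 606 probes, 3552. For 18 of the 35 the control intensity was under 1800, and for 18 the short exercise intensity was. The drop that the empty cells imply is accordingly small as a minimum, since the control intensity stood at a median of 1.49 times the limit, from 1.06 to 5.59 times. Short exercise over control had a median of 0.988 among the 35, with a range of 0.363 to 2.46, and of 1.09 among the other 571.

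At the edge of the rule, the 2 members nearest to the limit had 1242 and 1257 as the lower of their control and short exercise intensities. The 2 probes just outside, empty in both heated samples and measured after short exercise, had control intensities of 1178 and 1154. On the other side of the rule, the 2 weakest probes that stayed measured reached 1202 and 1219 in the higher of the 2 heated samples. Members and non-members thus met at the limit without a gap.

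**Figure D1:**
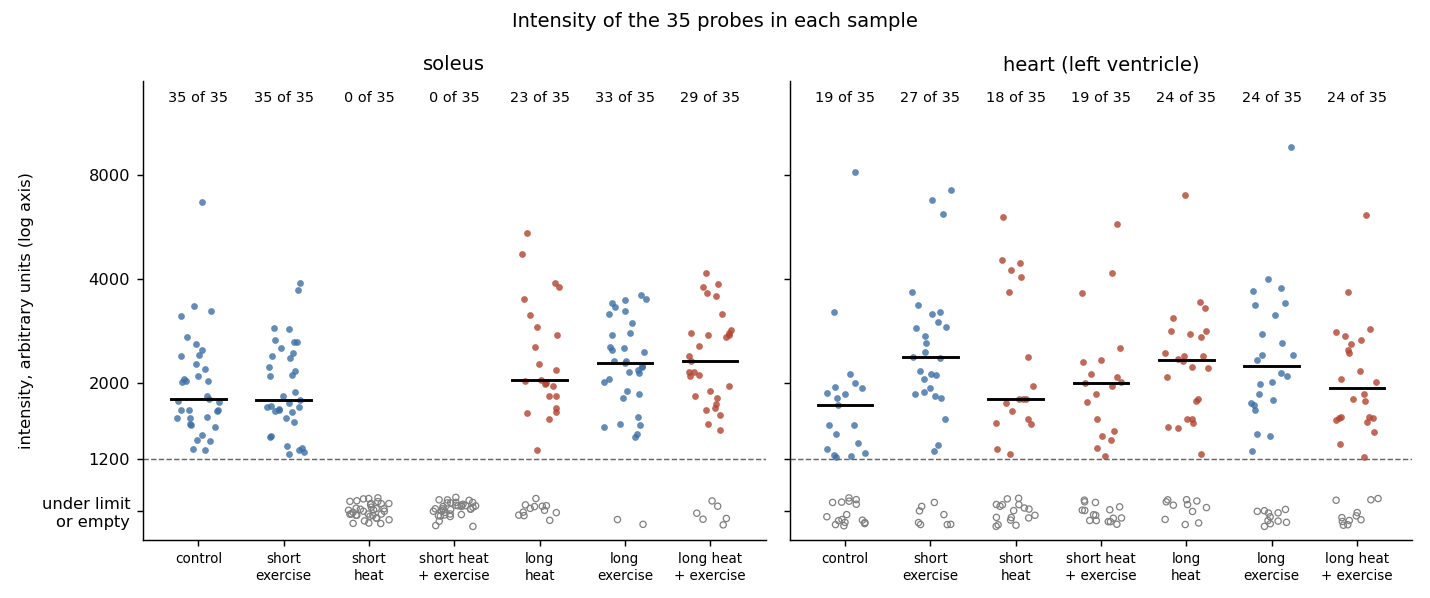
Intensity of the 35 probes (arbitrary units, log axis) in the 7 soleus and 7 heart samples, 1 point per probe, red for heated samples, with black lines at the median of the measured probes. Open points were empty or under 1200 and have no height of their own; all 35 sit there after short heat in soleus by choice, 23 to 33 are measured again after 1 month, and 18 to 27 are measured in each heart sample.

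Probes R518 and RG229 lay farthest from the limit by the lower of their control and short exercise intensities. R518 gave 3128 in the soleus control and 2855 after short exercise, was empty in both short heat samples, and gave 4710 after long heat, 2531 after long exercise and 2717 after the long combination. RG229 gave 2710 and 2665 in the soleus control and short exercise samples, then empty cells, then 3888 after long heat, 1484 after long exercise and 1894 after the long combination. Both were thus highest in soleus after 1 month of heat alone, and above their control there. Beside these, R384 and R060 complete the 4 members with 2400 or more in both starting samples, named after their values were seen. R060 was the strongest of the list in the control, with 6704, and gave 2434 after short exercise.

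The short heat samples of soleus had less signal as a whole. Over 261 probes with a measurement in every one of the 14 samples, none of which is a member, the median ratio to the soleus control was 0.560 after short heat (quartiles 0.431 and 0.714) and 0.688 after the short combination (quartiles 0.558 and 0.874). In short heat 232 of these 261 probes lay under their control value, and in the short combination 211 did. The other 4 treated soleus samples stood at 0.931 to 1.20 of the control and the 7 heart samples at 0.779 to 1.01 of it. Fewer probes were measured as well, 531 after short heat and 623 after the short combination, against 728 in the control and 755 after short exercise. The deposited series table, a second set of values in relative units, multiplies the intensities of short heat by 2.24 and those of the short combination by 1.86 relative to the soleus control (medians over the same 261 probes). For the other treated samples of both tissues this factor lay between 1.06 and 1.57. The loss of the 35 probes and the lower signal come from the same 2 samples, and a weaker array, fewer cells of a type and less RNA per cell cannot be told apart here.

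**Figure D2:**
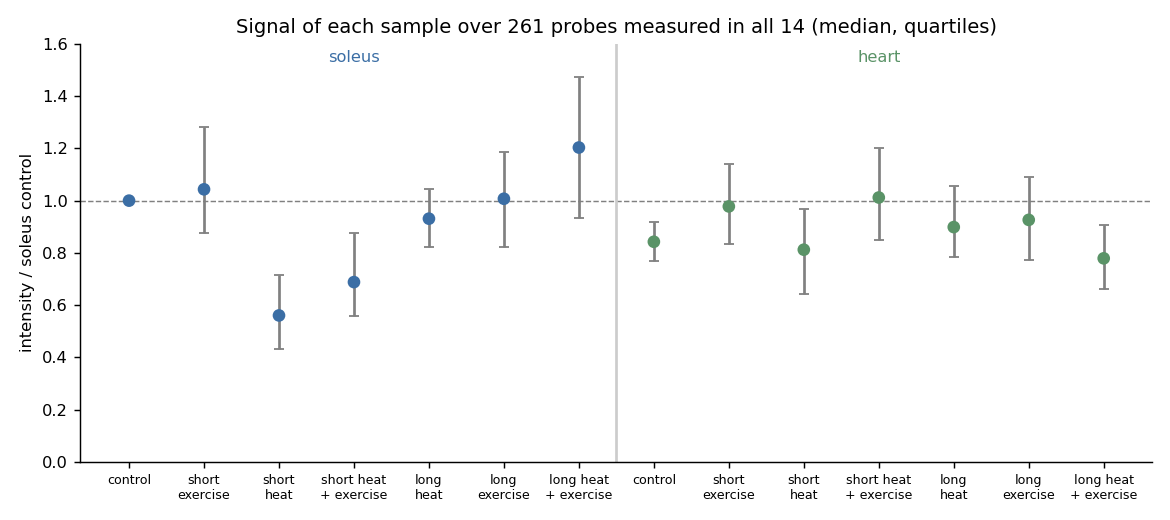
Ratio of each sample's intensity to the soleus control, as median with quartiles over 261 probes that have a measurement in every one of the 14 samples. Soleus short heat (0.560) and soleus short heat plus exercise (0.688) stand under the other 12 samples, which lie between 0.779 and 1.20.

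Multiplying each member's control intensity by the sample's ratio gives the value that the lower signal alone would leave. In short heat 24 of the 35 (68.6%) came out under 1200 in this way, which at a ratio of 0.560 holds for any probe under 2142 in the control. In the short combination 15 of the 35 (42.9%) did, being under 1744 in the control. For 15 members both samples, for 9 short heat alone, and for 11 neither sample was placed under the limit. With short exercise as the reference the counts were 24 and 19. There were 6 members that stayed above the limit in both samples from either reference. These 6, which include R518 and RG229, are 1.38% of the 434 probes so placed. At the other end, 10 members were under the limit in both samples from either reference, which is 50% of the 20 probes so placed.

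The 261 probes behind these ratios had to be measured in every sample, and their median in the soleus control, 7462, was well above the members' 1793. The ratio of probes as weak as the members is therefore not known. Of the 606 probes, 130 were placed under the limit in short heat and 77 of them (59.2%) were empty, while 108 of the 476 placed above it (22.7%) were empty too. In the short combination 34 of 81 (42%) and 74 of 525 (14.1%) were empty. From the control, R518 was placed at 1752 in short heat and 2152 in the short combination, and RG229 at 1519 and 1865. R060 was placed at 3756 and 4612 from the control, but at 1310 and 1582 from its lower short exercise value.

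Emptiness followed the starting intensity. With the lower of the control and short exercise intensities between 1200 and 1800, 24 of 120 probes (20%) were empty in both heated samples. Between 1800 and 2400 it was 7 of 89 (7.87%), and at 2400 or more 4 of 397 (1.01%). In the short heat sample 65, 46 and 74 probes of these 3 classes were empty (54.2%, 51.7% and 18.6%). In the short combination 62, 22 and 24 were (51.7%, 24.7% and 6.05%).

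Losses of the 2 heated samples overlapped at a share near the background over all 606 probes, and under it within each class of starting intensity. Of the 606, 185 were empty in short heat (30.5%) and 108 in the short combination (17.8%). The 35 lost in both are 18.9% of the first list and 32.4% of the second, so that the share lost in short heat was 32.4% among the losses of the short combination and 30.5% among all 606 probes. Another 150 probes were empty in short heat alone, 73 in the short combination alone, and 348 in neither. In the class of 1200 to 1800, 38.7% of the losses of the short combination were also lost in short heat. Of all 120 probes of the class, 54.2% were lost in short heat. Between 1800 and 2400 it was 31.8% against 51.7%, and at 2400 or more 16.7% against 18.6%. These shares were not tested. In the opposite direction, 4 of the 308 probes under the limit in control and short exercise (1.3%) were measured in both heated samples.

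**Figure D3:**
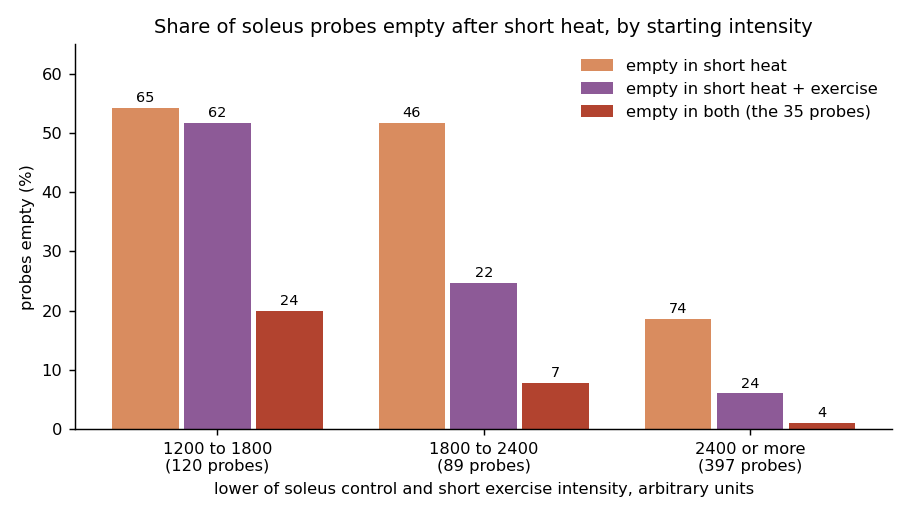
Percentage of the soleus probes present in control and short exercise that were empty in short heat, in short heat plus exercise and in both, by the lower of the 2 starting intensities (arbitrary units), with the number of empty probes above each bar. The share empty in both falls from 20% to 7.87% and 1.01% from the weakest to the strongest class.

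After 1 month every one of the 35 probes was measured in at least 1 soleus sample, and so were all but 1 of the other 571. Of the 35, 19 (54.3%) were measured in all 3 long samples, 12 in 2 of them and 4 in 1. The same held for 460 of all 606 probes in all 3 (75.9%), and for 441 of the other 571 (77.2%). The rule did not use these samples, whereas the requirement of a signal in control and short exercise favours a return.

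The number measured differed between the long samples, of which long exercise had no heat. After long exercise 33 of the 35 were measured, after the long combination 29 and after long heat 23. The other 571 probes were measured at 95.4%, 86.3% and 92.1%. The number of probes measured over the whole array followed the order of the members' counts, with 945, 897 and 696 of 1185. Of the 12 members missing from 1 long sample, 8 were missing from long heat, 3 from the long combination and 1 from long exercise. Of the 4 found in 1 long sample, 3 were found after long exercise and 1 after the long combination. Those 3 thus had no value in either of the long samples with heat. Among the other 571 probes, 112 were missing from 1 long sample and 17 were found in 1. Their split by sample was not counted, so the members' split has no background beside it.

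Within classes of starting intensity the members' return was not set apart from that of other probes in a single direction. The other probes of a class, here and for heart below, were by definition measured in at least 1 heated soleus sample. In the class of 1200 to 1800, 12 of 24 members (50%) and 41 of 96 other probes (42.7%) were measured in all 3 long samples. Between 1800 and 2400 it was 3 of 7 members (42.9%) and 55 of 82 other probes (67.1%), and at 2400 or more 4 of 4 and 345 of 393 (87.8%). In the weakest class 14 of 24 members (58.3%) were measured after long heat against 75% of the others. After long exercise 22 of 24 (91.7%) were, against 83.3%, and after the long combination 20 of 24 (83.3%), against 69.8%. Probes of 1 array are not replicates, so these shares carry no test.

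The level on return was near that of the control. The measured members had a median intensity of 2036 after long heat (1278 to 5416), 2279 after long exercise (1390 to 3587) and 2318 after the long combination (1460 to 4168). As a ratio to each probe's own control this was a median of 1.08, 1.28 and 1.14, with 15 of 23, 21 of 33 and 19 of 29 above their control. Among the measured probes of the other 571 the median ratios were 0.960, 1.04 and 1.24, with 42.8%, 56.1% and 70.8% above their control. A probe without a value enters neither figure, which raises the medians of weak probes.

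Among the 19 members measured in all 3 long samples, R060 and R518 had the highest mean log2 intensity there. R060 gave 3784 after long heat, 3502 after long exercise and 3173 after the long combination, all under its control value of 6704 and all above its short exercise value of 2434. R518, given above, was higher than its control after long heat and lower after both long treatments with exercise. No member was without a value in all 3.

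**Figure D4:**
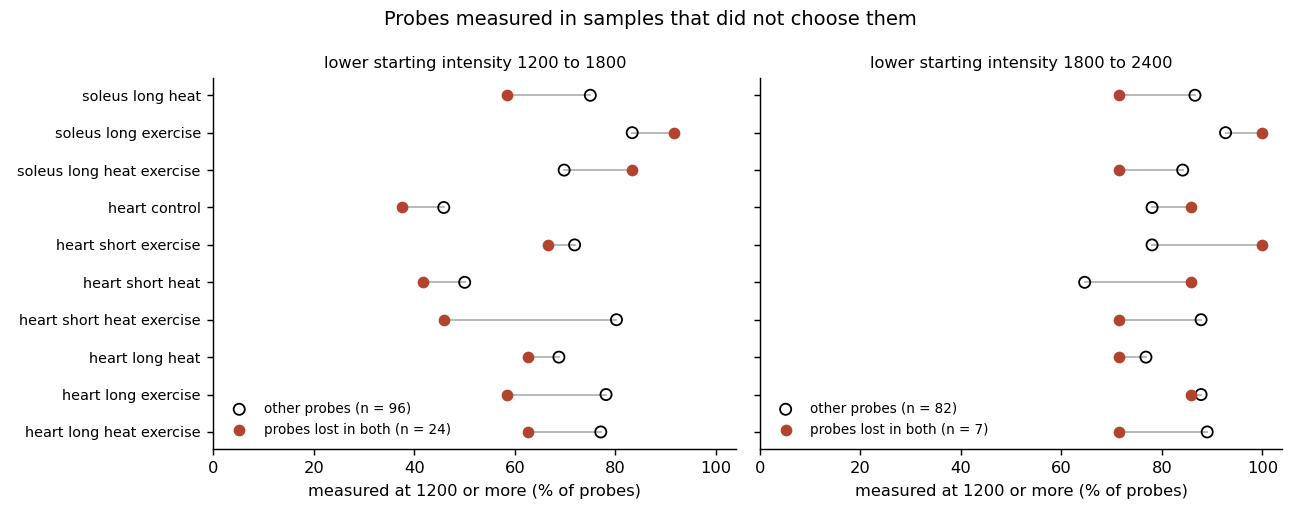
Percentage of probes measured at 1200 or more in the 3 long soleus samples and the 7 heart samples, none of which chose the members. Members are red, and other probes of the same class of starting intensity in soleus are open. In the weaker class members lie at 58.3% against 75% in soleus long heat and at 45.8% against 80.2% in heart short heat plus exercise. There they lie under the others in all 7 heart samples. The sign of the gap changes between samples in soleus and in the stronger class shown.

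In heart, a muscle that beats without rest and shares slow contractile proteins with the soleus, the 35 probes were weak too. The heart control had 19 of the 35 at 1200 or more, short exercise 27, short heat 18, the short combination 19, and each of the 3 long samples 24. The other 571 probes were measured at 86.9% in the heart control, 90.9% after short exercise, 75.8% after short heat, 93.9% after the short combination and 89% to 93.3% after the long treatments. Every member was measured in at least 1 heart sample, as were all but 2 of the other 571. In all 7 it was 6 of the 35 (17.1%), against 360 of the other 571 (63%). The heart control gave 1 member a higher intensity than the soleus control did, namely R060, with 8171.

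The same rule applied to heart caught 11 of 543 probes (2.03%). Of the 16 members present in heart control and heart short exercise, 9 were measured in both heated heart samples, 3 were empty in short heat alone, 1 in the short combination alone and 3 in both. These 16 were weaker than the 543, with a median of 1510 against 3124 for the lower of their 2 starting intensities. Under 2400 the rule caught 9 of 196 heart probes (4.59%) and 3 of the 14 members there. The 3 are R518, RG103 and R718, named after their values were seen. The heart short heat sample had 0.942 and the heart short combination 1.16 of the heart control's signal over the 261 probes.

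Among all 35, 13 (37.1%) were measured in both heated heart samples, 11 in 1 and 11 in neither, against 424 of the other 571 (74.3%) measured in both. In the weakest soleus class, heart short heat held 10 of 24 members (41.7%) and 50% of the other 96 probes. The heart short combination held 11 of 24 members (45.8%) and 80.2% of the others. Between 1800 and 2400 these were 85.7% of 7 members against 64.6% of 82 others, and 71.4% against 87.8%. At 2400 or more, 2 of 4 members (50%) were measured in heart short heat against 84.5% of the 393 others. In the heart short combination it was 3 of 4 (75%) against 98.5%. Members of the weakest class lay under the others in all 7 heart samples, which was not tested. Heart control had 37.5% against 45.8% there, and heart long exercise 58.3% against 78.1%.

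Heart took no part in choosing the probes, so the contrast of the rule could be tested there. The 2 short heat samples of heart were compared with the heart control and short exercise in a limma model of all 7 heart samples, in which the 3 long samples formed a group of their own. Values were log2(quantile-normalized intensity + 1219), with 1200 entered for anything lower. The added 1219 and the entered 1200 understate a fold change for weak probes, while the normalization can enlarge it. A probe was tested when measured in at least 4 heart samples. That was met by 688 probes and 23 of the 35, and a member that was rarely measured in heart was therefore not tested. No probe passed a Benjamini-Hochberg adjusted p of 0.05 in limma (0 of 688), with 31 at an unadjusted p under 0.05. Of these, 14 were lower (2.03%) and 17 higher (2.47%). Among the 23 members 0 passed and the lowest adjusted p in limma was 0.886. Whether the samples come from separate animals is not labelled, and the p-values cover only the spread between them. Each group of the fit joins samples of different treatments. That spread therefore includes differences between treatments and is not a replicate error.

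The fitted differences of the 23 members ran from -0.52 to 0.71 with a median of -0.12 on the log2 scale, beside a median of -0.04 over all 688. They were below 0 for 17 of the 23, against 55.7% of the 688. The median standard error of a single probe was 0.247 over all 688, which is not the error of the members' median difference. Under median scaling 14 of the 23 were below 0. Leaving out the heart short combination gave 12, and leaving out heart short exercise gave 13.

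R518 and RG103 had the lowest moderated statistics of the members. R518 gave 1235 in the heart control, 2905 after short exercise, empty cells in both heated samples, and 2204, 3351 and 1790 after long heat, long exercise and the long combination. Its fitted difference was -0.52 ± 0.25 (SE; limma adjusted p = 0.886). RG103 gave 1511 and 1826 in heart control and short exercise, then empty cells, and 1569 after long heat, 1721 after long exercise and an empty cell after the long combination, with a difference of -0.37 ± 0.19 (limma adjusted p = 0.886). Quantile normalization raised the heart control values of R518 and RG103 to 1780 and 2097, while the empty cells stood at 1208 and 1201. Without normalization the differences were -0.40 and -0.25. A common floor of 2040 was the highest of the samples' lowest measured values after normalization. With this floor for all samples the differences came to -0.15 for R518 and -0.01 for RG103. Both were thus empty under short heat in soleus and in heart.

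R068 and RG528 had the highest. R068 gave 1074 in the heart control and 2872 after short exercise, then 4049 after short heat and 3643 after the short combination, and 2761, 3394 and 2861 after long heat, long exercise and the long combination. Its difference was 0.71 ± 0.27 (limma adjusted p = 0.886). RG528 gave 1069 and 1270, then 1569 and 1362, and 2306 after long heat and 1328 after the long combination, with no value after long exercise and a difference of 0.20 ± 0.22 (limma adjusted p = 0.951). In soleus R068 had given 1351 and 2165 in control and short exercise, and 2170, 3164 and 2747 after long heat, long exercise and the long combination.

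With values under the limit entered at it, both heated heart values lay above both starting values for 2 of the 35 members and below both for 5. Over all 1185 probes this was 8.35% above and 7.26% below. The members' 2 and 5 of 35 are 5.71% and 14.3%, and the other 571 had 10.5% and 12.3%.

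**Figure D5:**
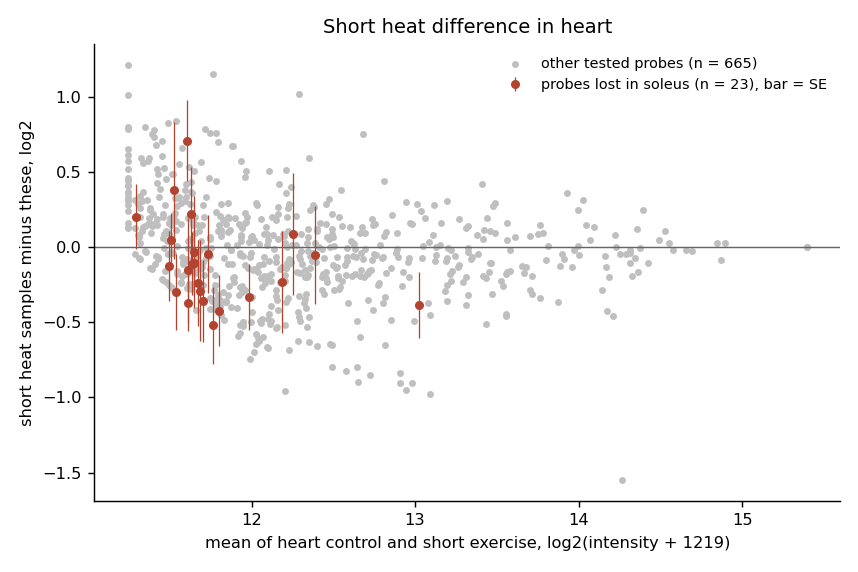
Difference between the 2 short heat samples and the control and short exercise samples of heart (log2) against the mean of the latter, for 688 tested probes, with the 23 tested members in red and their standard errors. Members span -0.52 to 0.71 among probes of the same intensity, and none passed the adjusted threshold.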

How the data were processed

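Arrays of 14 samples (heart and soleus, 7 conditions, 1 sample each) were labelled with radioactive phosphorus by a Clontech protocol, per the labels. Each sample's deposited file holds linear intensities. For 4 samples the same kind of deposited intensity was recorded as unit other, because some lines lack a second cell. The labels do not state image software, background correction or scaling. The deposited series table holds relative intensities, with direction the same and scale unknown, and served as an alternative. No count or sequencing depth exists, and the number of arrays limits the precision. The members, classes and tests were chosen with earlier results of these data known.

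The rule was applied with pandas 2.3.3 in Python 3.11.15. Array scale was the median ratio over 261 probes with a measurement in every sample. The heart contrast used limma 3.58.1 in R 4.3.3, with lmFit and eBayes, 4 residual degrees of freedom, a pseudocount of 1219 (10th percentile of deposited intensities) and two-sided tests. The fit was tested on simulated data. Probes named were the 2 members with the highest lower starting intensity, the 2 highest of those measured in all long soleus samples, and the 2 highest and 2 lowest by moderated statistic in heart. Alternatives covered the limit, the scale ratio, normalization, pseudocount, filter, an exercise term and each heart sample left out. Lists of genes and markers were not tested, because probes are not paired with genes.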

Additional observations from a re-analysis of the deposited data

Results flagged for a closer look

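Of the 35 probes, 2 had both short heat values of heart above the heart control and heart short exercise values, opposite to their loss in soleus, with values under the limit entered at it. These are R068 and RG528. The 2 are 5.71% of the 35, against 8.35% of all 1185 probes and 10.5% of the other 571, so the count is no higher than the background. The difference between the tissues was not tested, and the direction in soleus was fixed by the choice of the probes. RG528 had a fitted heart difference of 0 when a common floor of 2040 was applied, so its direction rests on values close to the limit.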

How the results depend on the processing

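The list depends on the limit. With 1500 or more in both starting samples 24 probes remained and with 2400 or more 4 did, while empty cells of the series table gave 35, of which all 35 were shared. Of these, 19 were measured in all 3 long soleus samples, 17 at 1500 or more, 2 at 2400 or more, and 4 among the 4 members that start at 2400 or more. In both short heat heart samples 13 were measured, 8 at 1500 or more, 3 at 2400 or more, and 2 among the members that start at 2400 or more. A higher limit can only lower these counts. The number placed under the limit by array scale ran from 23 to 25 in short heat and from 15 to 19 in the short combination over the alternatives. In the heart contrast 0 probes passed in limma, 31 having an unadjusted p under 0.05, and 1 without a filter on low values. With 1 sample left out the count ran from 0 to 9, and the 9 came without the heart short combination, with 0 members among them and 90 probes at an unadjusted p under 0.05. A common floor, a normalization of heart alone and exercise as a term in the fit were added after seeing the data, and each gave 0. The 4 members named for heart did not turn direction in any of 64 values under the alternatives, RG528 reaching 0 with the common floor, and none passed the threshold. Part of the 64 only repeated the main value. No filter, the 4 samples of the contrast alone, a long sample left out and the exercise term cannot change it. These 4 members were also picked as the extremes of the main fit. R068 ran from 0.35 to 1.08 and R518 from -0.89 to -0.15, and RG103 from -0.66 to -0.01, its value with the common floor. The labels give no replicate numbers to pair samples by, and matching by exercise is the fit with exercise as a term.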
